A study of Mus musculus with 20 samples.

Results

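Amino acid transporters of the renal tubule were followed across 10 tumors and 10 normal kidneys of a *Vhl*-deficient mouse model of clear cell kidney cancer. The 10 genes were chosen by name as carriers of the apical or basolateral membrane of the tubule, by a rule that uses no measured value, from 54532 genes in the count table. They were *Slc6a19*, *Slc6a18*, *Slc6a20b*, *Slc3a1*, *Slc7a9*, *Slc1a1*, *Slc7a12* and *Slc7a13* at or assigned to the apical side, and *Slc7a7* and *Slc7a8* at the basolateral side. Of these, 8 passed the filter on low counts and entered the test across 15354 genes, and *Slc7a12* and *Slc7a13* did not, because too few libraries held enough counts of them.

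The proximal tubule recovers nearly all of the amino acids that the glomerulus filters. Sodium-coupled carriers and exchangers of the brush border take them up from the lumen, and exchangers and uniporters of the basolateral membrane pass them on to the blood. Several of the carriers work only with a partner protein: collectrin (*Cltrn*) brings the Slc6 carriers to the brush border, the heavy subunit rBAT (*Slc3a1*) holds cystine and dibasic amino acid exchangers at the apical side, and the heavy subunit 4F2hc (*Slc3a2*) holds other exchangers at the basolateral side. Inherited loss of these carriers underlies Hartnup disorder (*SLC6A19*), cystinuria (*SLC3A1* and *SLC7A9*) and lysinuric protein intolerance (*SLC7A7*) in people.

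All mice carried LSL-Cas9/+ and Pax8 Cre/+ on a C57BL/6 background, so that Cas9 was switched on in cells of the Pax8 lineage, which takes in the tubule epithelium. An adeno-associated virus without Cre, carrying guides for *Tsc1*, *Vhl*, *Keap1* and *Pbrm1*, was injected into the kidney. The 10 tumors came from 10 such mice, and the 10 normal kidney samples were non-tumor regions of those animals, which therefore shared the alleles and the injection. Mice of both sexes were injected as young adults, per the methods of the study, and the labels give neither age nor sex for a single sample. Each library held 18447394 to 24902973 counts in tumors and 14737516 to 26679704 in normal kidneys, and values are given as CPM (the count of a gene scaled to a library of fixed size) after scaling by TMM, which corrects for differences in RNA composition between libraries.

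Some libraries stood apart before any comparison was made. Normal kidneys 5, 7 and 8 held 1760 to 3300 CPM of *Lcn2* and 26200 to 44300 CPM of *Spp1*, genes known to be induced in injured tubules, against 9.77 to 232 and 2030 to 4050 CPM in the other 7 normal kidneys. They also held 140 to 633 CPM of the proximal tubule phosphate carrier *Slc34a1*, against 1890 to 3580 CPM in the other 7. Of the other proximal tubule markers listed, *Aqp1*, *Miox*, *Hnf4a* and *Ggt1* were likewise below the other 7 in each of them. *Lrp2*, *Cubn*, *Slc5a2* and *Slc5a12* overlapped, because kidney 9 was low too. *Slc22a6* did not follow, at 148 to 591 CPM against 285 to 593 CPM. Tumor 7 held 1560 CPM of the collagen gene *Col1a1*, against 17.7 to 139 CPM in the other 9 tumors. The TMM factor was 0.749 in normal kidney 9 and lay between 1.03 and 1.14 in the remaining 9. The results below are given with all libraries and, where it matters, without these, and the part that these differences play in the results was not tested.

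Sequence upstream of the start was at hand for 7 of the 10 genes, in RefSeq annotation of GRCm38.p6. Bases before the start of *Slc6a20b*, of its neighbouring copy *Slc6a20a* and of *Cltrn* are shown because, as described below, the neighbouring copies changed in opposite directions and *Cltrn* was the partner subunit that fell. They lie at chr9:123632539-123632788 (minus strand), chr9:123678856-123679082 (minus strand) and chrX:164089937-164090183 (plus strand), and capitals mark matches to GTTAAT on either strand, the core of sites for the tubule factor HNF1.
Slc6a20b: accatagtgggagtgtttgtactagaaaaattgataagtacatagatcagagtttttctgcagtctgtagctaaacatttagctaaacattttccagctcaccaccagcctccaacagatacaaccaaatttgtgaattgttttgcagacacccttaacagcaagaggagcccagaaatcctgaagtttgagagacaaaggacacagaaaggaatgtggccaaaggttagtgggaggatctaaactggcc
Slc6a20a: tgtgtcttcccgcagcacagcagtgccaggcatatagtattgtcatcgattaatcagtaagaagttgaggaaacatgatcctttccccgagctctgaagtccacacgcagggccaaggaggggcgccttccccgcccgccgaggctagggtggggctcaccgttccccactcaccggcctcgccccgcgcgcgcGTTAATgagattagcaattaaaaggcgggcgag
Cltrn: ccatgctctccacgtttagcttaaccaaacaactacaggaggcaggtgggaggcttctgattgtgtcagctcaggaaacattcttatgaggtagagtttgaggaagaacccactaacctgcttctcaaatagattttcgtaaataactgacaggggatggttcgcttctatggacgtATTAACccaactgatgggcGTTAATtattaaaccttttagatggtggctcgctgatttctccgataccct

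They were searched over 250 bases and are printed up to 30 bases into any GENCODE exon of the gene. The windows held no GTTAAT for *Slc6a20b*, 1 for *Slc6a20a* and 2 for *Cltrn*, and the match of *Slc6a20a* touches the first exon of a longer GENCODE transcript. Among 32851 upstream windows of that length, 6.43% held at least 1 such match. Over the annotated starts of the 7 members with sequence, GTTAAT was found for 1 member (*Slc7a7*), and CAAAGTCCA, an HNF4-type site carried by 0.384% of all windows, for 1 (*Slc3a1*). Both matches lie at starts whose next bases were not found in a GENCODE transcript of the gene, for *Slc7a7* at 1 of 5 annotated starts. The shares are counted per window and not per gene. TGACNNNGC, the core of the antioxidant response element and carried by 10.2% of all windows, was found for none of the 7. These are matches of letters on both strands, and no motif contains another.

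Among the 8 tested carriers, 2 were lower in tumors, *Slc6a20b* and *Slc1a1*, and 1 was higher, *Slc7a8* (edgeR quasi-likelihood test, adjusted p under 0.05 over all 15354 genes). Across all tested genes 23.8% were lower and 23.6% were higher by that rule. The remaining 5, *Slc6a19*, *Slc6a18*, *Slc3a1*, *Slc7a9* and *Slc7a7*, did not pass the test. The median log2 fold change of the 8, tumor over normal kidney, was -0.19, beside -0.02 over all tested genes. In bulk tissue, fewer cells of a type and less RNA per cell cannot be told apart. The members' values in every library are drawn in the plot of the 10 transporters.

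**Figure D1:**
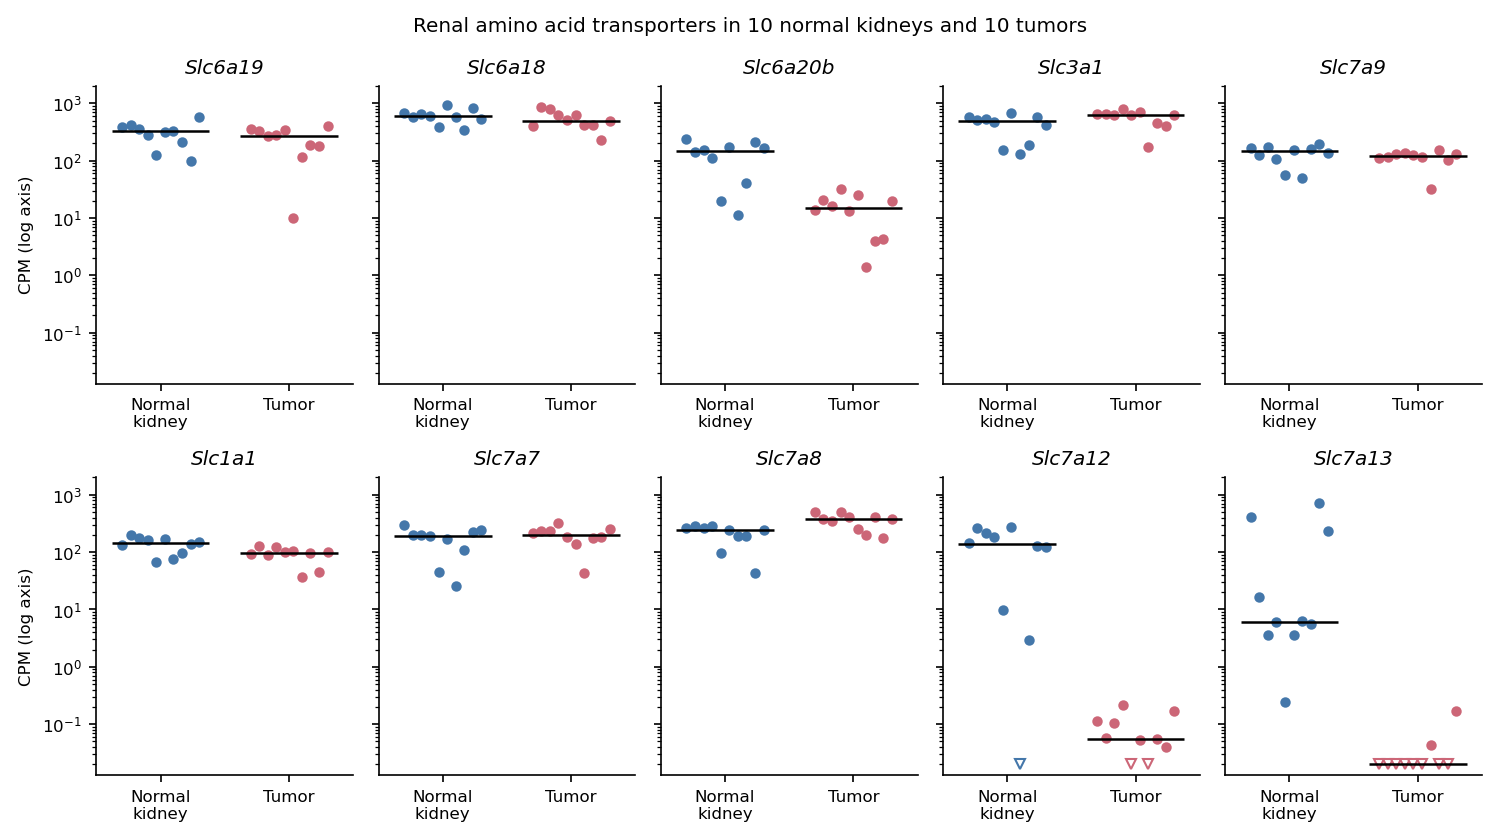
CPM of the 10 transporters on a log axis, 1 point per library, for 10 normal kidneys (blue) and 10 tumors (red), with the median as a bar and libraries at 0 as open triangles. *Slc6a20b*, *Slc7a12* and *Slc7a13* sit lowest in tumors against their normal kidneys, while the points of *Slc6a18*, *Slc3a1*, *Slc7a9* and *Slc7a7* overlap widely.

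*Slc6a19* encodes B0AT1, the main brush border carrier of neutral amino acids. Its level ran from 97.8 CPM to 567 CPM in normal kidneys with a median of 324, and from 9.86 to 394 in tumors with a median of 273. The groups overlapped, and the log2 fold change of -0.33 (SE 0.404) did not pass the test (edgeR adjusted p = 0.528). The lowest value belonged to tumor 6, whose 9.86 CPM lay far below the 114 to 394 CPM of the other 9 tumors. Without tumor 6 the log2 fold change was -0.18 (adjusted p = 0.622).

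The gene *Slc6a18*, which lies beside *Slc6a19* on chromosome 13 (73661752 to 73678023, mm10) and encodes the later tubule's carrier of glycine and other neutral amino acids, did not share the low value. Tumor 6 held 617 CPM of *Slc6a18*, inside the tumors' range of 228 to 869 CPM (median 497). Normal kidneys ranged from 339 to 930 CPM with a median of 588, and the log2 fold change of -0.19 (SE 0.214) did not pass (adjusted p = 0.494). In tumor 6, *Cltrn* stood at 205 CPM, the lowest of the tumors but for tumor 7. The plot of these genes by tumor shows that tumor 6 stood apart in *Slc6a19* and not in the other 2 genes. An antisense gene, *Slc6a19os*, overlaps 20.1% of *Slc6a19* at a mean of 2.47 CPM, and whether the counting used strand is not given in the sources used here.

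**Figure D2:**
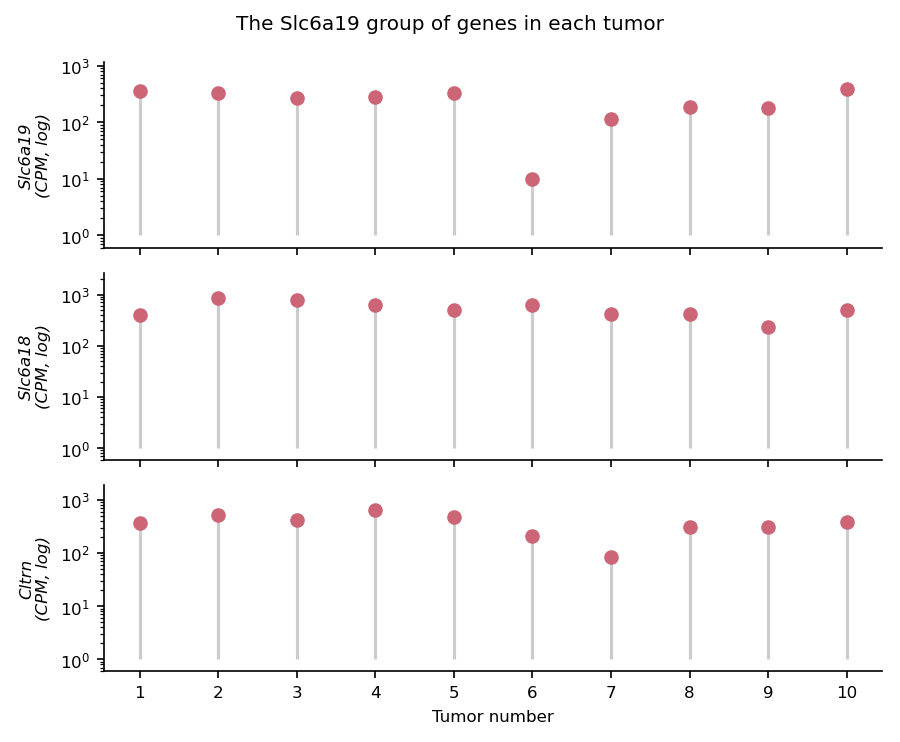
CPM (log axes) of *Slc6a19*, *Slc6a18* and *Cltrn* in each of the 10 tumors. *Slc6a19* stood at 9.86 CPM in tumor 6 and *Slc6a18* at 617 CPM.

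*Slc6a20b* (chromosome 9, 123590800 to 123632565) belongs to a pair of neighbouring mouse genes of the imino acid carrier family and fell furthest of the tested members. Normal kidneys held 11.2 to 235 CPM with a median of 148, and tumors held 1.41 to 32.5 CPM with a median of 15.0. All 10 tumors lay below the kidney median, and 3 of them lay below every normal kidney. The log2 fold change was -3.07 (SE 0.556, edgeR adjusted p = 0.000109). Normal kidneys 5, 7 and 8 held 19.8, 11.2 and 40.1 CPM, against 113 to 235 CPM in the other 7. Without them every tumor was below every kidney, and the log2 fold change was -3.51 (adjusted p = 2.89e-06).

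Its neighbour *Slc6a20a*, the imino acid carrier SIT1, went the other way. Normal kidneys held 11.0 to 26.2 CPM (median 14.3) and tumors 10.6 to 41.9 CPM (median 28.7), with 6 tumors above every normal kidney. The log2 fold change was 0.75 (SE 0.212, edgeR adjusted p = 0.00608). Over 1716 aligned bases the longest coding transcripts of the pair were 91.7% identical, and they shared an identical run of 321 bases, so reads from that stretch cannot be assigned to either copy by sequence. The levels of this pair are uncertain to that extent. *Slc6a20b* also overlaps *Sacm1l* on the other strand over 4.31% of its length.

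*Cltrn*, which encodes the partner collectrin of the Slc6 carriers, held 225 to 981 CPM in normal kidneys (median 721) and 82.2 to 637 CPM in tumors (median 368), and all 10 tumors lay below the kidney median. It fell by 0.85 on the log2 scale (SE 0.300, edgeR adjusted p = 0.0241). The log2 ratio of *Slc6a19* to *Cltrn* per kilobase was -2.83 ± 0.98 (SD, n = 10) in normal kidneys and -2.52 ± 1.33 in tumors, a difference of 0.31 that did not pass (permutation test, two-sided, p = 0.567, adjusted over 8 ratios 0.75).

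*Slc3a1* encodes rBAT, the heavy subunit whose loss causes cystinuria, and had the highest level per kilobase of exon of the 10 members in both groups. Normal kidneys held 128 to 683 CPM (median 495) and tumors 171 to 800 CPM (median 621). The groups overlapped and the log2 fold change of 0.42 (SE 0.300) did not pass (edgeR adjusted p = 0.261). Normal kidneys 5, 7 and 8 held 128 to 184 CPM, against 425 to 683 CPM in the other 7, and without them the log2 fold change was 0.07 (adjusted p = 0.806).

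*Slc7a9* encodes b0,+AT, the light subunit that carries cystine and dibasic amino acids with rBAT. Its level was 50.0 to 193 CPM in normal kidneys (median 144) and 31.8 to 151 CPM in tumors (median 121), with a log2 fold change of -0.20 (SE 0.248) that did not pass (edgeR adjusted p = 0.538). Set against *Slc3a1* in the same library, it was lower in tumors. The log2 ratio of *Slc7a9* to *Slc3a1* per kilobase was -1.81 ± 0.57 (SD, n = 10) in normal kidneys and -2.51 ± 0.32 in tumors. The difference was -0.70 (permutation test, two-sided, p = 0.0014, adjusted over 8 ratios 0.0056). The tumors ran from -2.85 to -1.82 and the kidneys from -2.37 to -0.40, so the ranges overlapped. The highest ratio, -0.40, belonged to normal kidney 8, and the difference was between -0.77 and -0.54 when any single library was left out. Without normal kidneys 5, 7 and 8 it shrank to -0.44 (permutation test, adjusted p = 0.0224).

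*Slc7a13* (chromosome 4, 19818725 to 19842218) encodes AGT1, the other light subunit known to pair with rBAT, which carries aspartate, glutamate and cystine in the straight part of the proximal tubule. It was nearly absent from tumors: 8 of 10 tumors had no count, and tumors 7 and 10 held 0.0427 and 0.173 CPM. Normal kidneys held 0.248 to 731 CPM with a median of 6.10. A count of 0 allows up to 3 counts in a library, which limits what can be said of the 8. Every tumor lay below every normal kidney, but the lowest kidney (0.248 CPM) was close to the highest tumor (0.173 CPM). Both values rest on few counts. This pattern was found in 4.74% of the tested genes, a set that does not hold *Slc7a13*. For no member did every tumor lie above every kidney (5.87% of the tested genes).

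The mean log2 CPM of *Slc7a13*, with a prior count of 2, was 4.01 ± 3.54 (SD, n = 10) in normal kidneys and -3.13 ± 0.47 in tumors. The difference of -7.14 had a two-sided permutation p of 2e-05, the smallest that 100000 resamples can give. With a prior count of 0.5 the difference was -8.85, so its size depends on how near-zero counts are treated. The filter on low counts had left the gene out. Without that filter edgeR called it lower (adjusted p = 3.26e-06 over 32383 genes, of which 15.2% were called lower).

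Within the normal kidneys *Slc7a13* split widely. Kidneys 1, 9 and 10 held 411, 731 and 232 CPM, and the other 7 held between 0.248 and 16.2 CPM. These 3 kidneys expressed the Y-linked gene *Ddx3y*, at 45.6, 23.6 and 62.2 CPM, as did kidneys 7 and 8, while kidneys 2 to 6 had none. *Kap*, a proximal tubule gene known for its androgen response, held 1780, 10200 and 238 CPM in kidneys 1, 9 and 10. In kidneys 7 and 8, with 2120 and 453 CPM of *Kap*, *Slc7a13* was at 6.21 and 5.66 CPM. The relation of sex to these levels was not tested, since the labels do not give it. The plot of marker genes by kidney sets these values side by side.

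**Figure D3:**
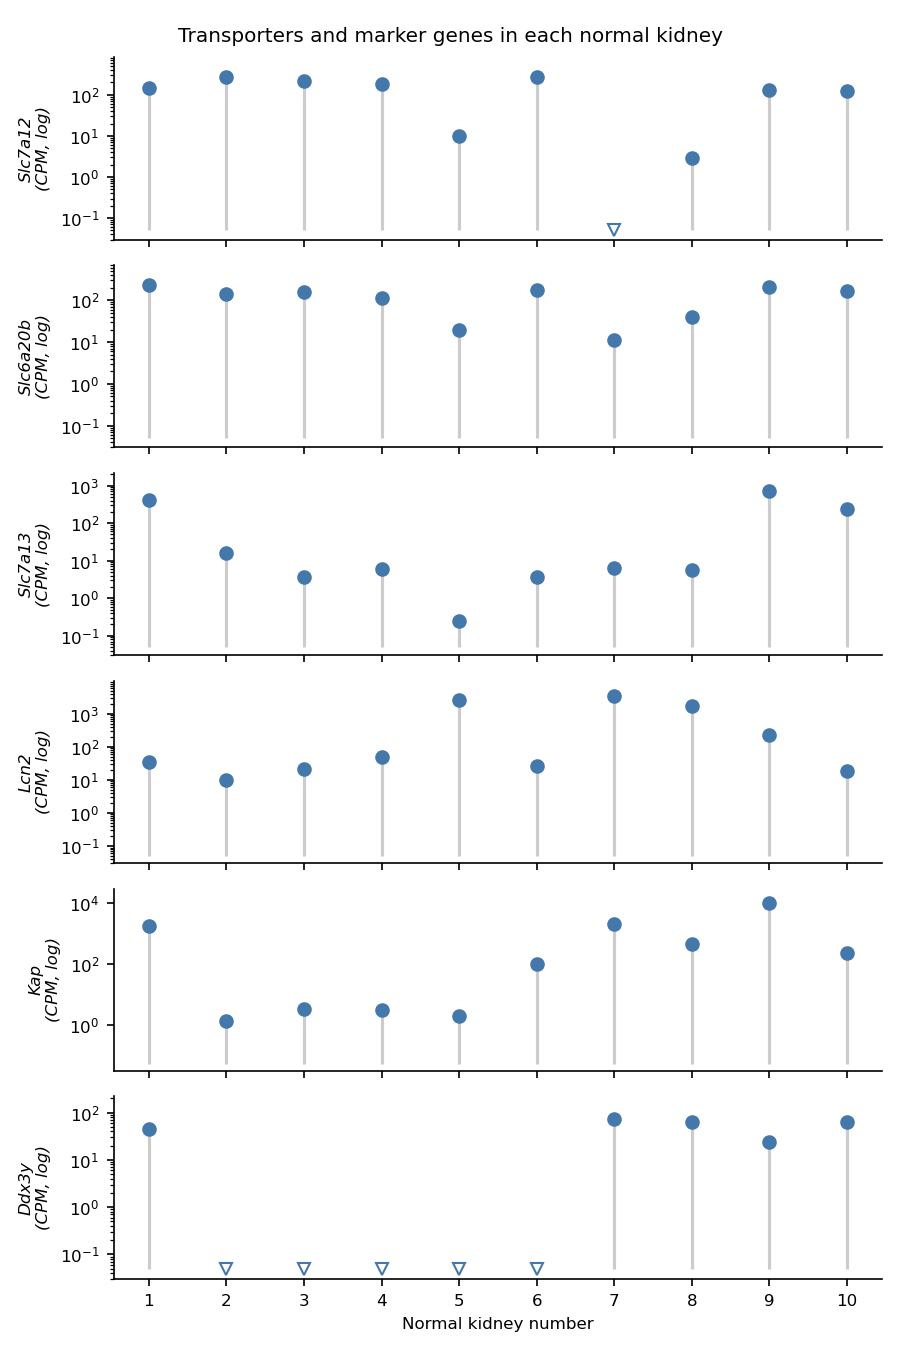
CPM (log axes) of *Slc7a12*, *Slc6a20b*, *Slc7a13*, *Lcn2*, *Kap* and *Ddx3y* in each of the 10 normal kidneys, with open triangles at 0. Kidneys 5, 7 and 8 are high in *Lcn2* (1760 to 3300 CPM) and low in *Slc7a12* and *Slc6a20b*, and kidneys 1, 9 and 10 are high in *Slc7a13* (232 to 731 CPM).

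*Slc7a12* (chromosome 3, 14480697 to 14505830), a light subunit of the same family, had a different pattern among the kidneys and the same near-absence from tumors. Tumors held 0 to 0.215 CPM with a median of 0.0562, from 17 counts in all 10 libraries together. Normal kidneys held 0 to 277 CPM with a median of 136. Kidneys 5, 7 and 8 were at 9.72, 0 and 2.88 CPM, and the other 7 held 123 to 277 CPM. Kidney 7, with no count in 26679704, kept the groups from separating.

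The mean log2 CPM of *Slc7a12* was 5.41 ± 3.77 (SD, n = 10) in normal kidneys and -2.56 ± 0.55 in tumors, a difference of -7.97 (permutation test, two-sided, p = 0.00016). Without the filter on low counts edgeR called it lower (adjusted p = 5.78e-08). Without kidneys 5, 7 and 8 the difference was -10.07 and every tumor lay below every kidney. The transcripts of *Slc7a12* and *Slc7a13* shared no identical run longer than 12 bases.

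*Slc1a1* (chromosome 19, 28835049 to 28913960) encodes EAAC1, the brush border carrier of glutamate and aspartate. Normal kidneys held 66.2 to 199 CPM (median 145) and tumors 36.4 to 126 CPM (median 97.9). All 10 tumors lay below the kidney median, and 2 lay below every kidney. It fell by 0.58 on the log2 scale (SE 0.226, edgeR adjusted p = 0.0388). That call is close to the threshold: with the low-count filter off, adjusted p was 0.0528, and leaving out normal kidney 2, 3, 4, 6 or 10 or tumor 1, 3 or 9 gave values between 0.0534 and 0.0761. Without kidneys 5, 7 and 8, which held 66.2 to 94.9 CPM, the log2 fold change was -0.82 (adjusted p = 0.00201) and every tumor lay below every remaining kidney.

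At the basolateral membrane, *Slc7a8* was the member that rose. It lies on chromosome 14, 54722209 to 54781946, and encodes LAT2, an exchanger of neutral amino acids that pairs with 4F2hc. Normal kidneys held 43.4 to 281 CPM with a median of 240, and tumors held 174 to 506 CPM with a median of 377. Of the 10 tumors 7 lay above every normal kidney. The log2 fold change was 0.76 (SE 0.272, edgeR adjusted p = 0.0266). The lowest kidney, number 9 at 43.4 CPM, was also the one with the lowest *Slc6a19* at 97.8 CPM. The call was lost without normal kidneys 5, 7 and 8 (log2 fold change 0.62, adjusted p = 0.0888), with upper quartile scaling (0.63, adjusted p = 0.0609) and with scaling to library totals (0.57, adjusted p = 0.108).

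*Slc7a7* encodes y+LAT1, which exchanges dibasic for neutral amino acids with 4F2hc at the same membrane. Its level was 25.6 to 293 CPM in normal kidneys (median 193) and 42.8 to 328 CPM in tumors (median 202). The log2 fold change of 0.24 (SE 0.355) did not pass (edgeR adjusted p = 0.595). Normal kidneys 5, 7 and 8 held 44.5, 25.6 and 107 CPM against 170 to 293 CPM in the other 7, and without them the log2 fold change turned to -0.11 (adjusted p = 0.746).

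The shared partner *Slc3a2* held 229 to 437 CPM in normal kidneys (median 280) and 240 to 479 CPM in tumors (median 357), and its log2 fold change of 0.32 (SE 0.140) did not pass (edgeR adjusted p = 0.0681). It passed without normal kidney 5 (0.40, adjusted p = 0.013), tumor 6 (0.37, adjusted p = 0.0324) or tumor 7 (0.35, adjusted p = 0.0397), and without kidneys 5, 7 and 8 together (0.44, adjusted p = 0.0104). Neither the ratio of *Slc7a7* to *Slc3a2* (difference 0.08, permutation p = 0.886, adjusted 0.886) nor that of *Slc7a8* to *Slc3a2* (difference 0.54, permutation p = 0.105, adjusted 0.279) passed. Both tests compare 10 tumors with 10 kidneys, two-sided. Without kidneys 5, 7 and 8, the ratio of *Slc7a7* to *Slc3a2* was lower in tumors by a difference of -0.65 (permutation test, adjusted p = 0.000823). The ratio of *Slc7a7* to *Slc7a8* then differed by -0.97 (permutation test, adjusted p = 0.0224). With all libraries, 2 of the 8 ratios passed, *Slc7a9* to *Slc3a1* and *Slc7a13* to *Slc3a1* (difference -7.67, adjusted permutation p = 0.00016), and without the 3 kidneys 4 did. The ratio of *Slc7a13* to *Slc3a1* rests on 5 counts of *Slc7a13* over the 10 tumors, so its size depends on how near-zero counts are treated. The ratios of *Slc7a7* to *Slc7a8* (difference -0.46, adjusted permutation p = 0.686), *Slc6a18* to *Slc6a19* (0.36, adjusted 0.75) and *Slc7a12* to *Slc7a13* (-0.83, adjusted 0.75) did not pass, and the last rests on 17 and 5 counts in tumors.

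**Figure D4:**
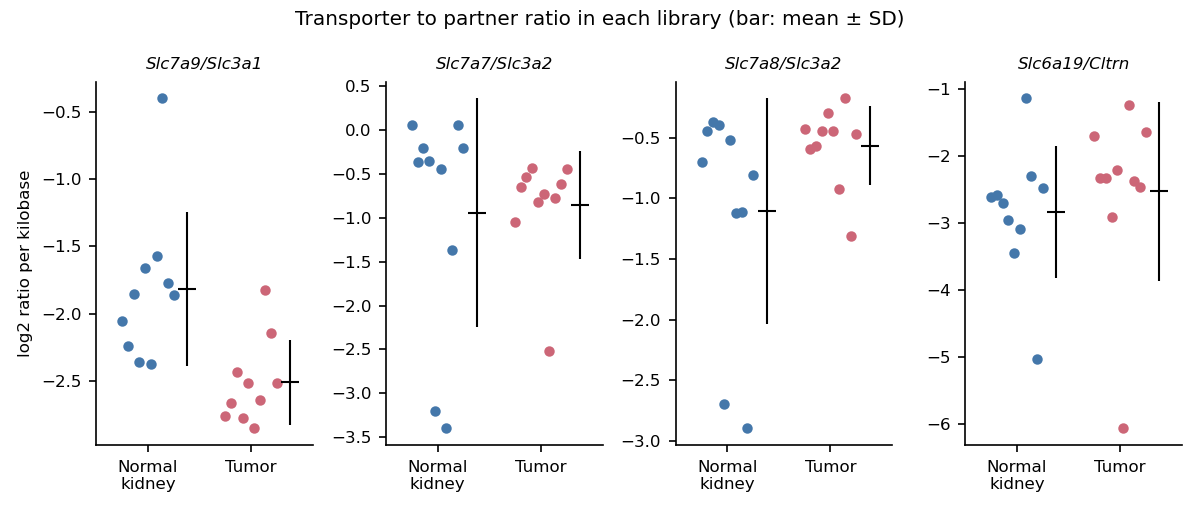
Log2 ratio of CPM per kilobase of exon in each library for 4 transporter and partner pairs, 10 normal kidneys (blue) and 10 tumors (red), with mean ± SD. The ratio of *Slc7a9* to *Slc3a1* is lower on average in tumors (-2.51 against -1.81), and the points of all 4 pairs overlap.

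On the per-kilobase scale, the order of the members differed between the groups. In normal kidneys *Slc3a1* led with a median of 214 CPM per kilobase, followed by *Slc6a18* at 133 and *Slc7a12* at 78.2. Then came *Slc6a19* (64.7), *Slc7a7* (58.2), *Slc7a9* (54.0) and *Slc7a8* (48.0), *Slc1a1* (23.5), *Slc6a20b* (17.4) and *Slc7a13* (2.85). In tumors *Slc3a1* (269) and *Slc6a18* (112) kept the first places, and *Slc7a8* came next at 75.3. It was followed by *Slc7a7* (61.0), *Slc6a19* (54.6) and *Slc7a9* (45.3), with *Slc1a1* at 15.9, *Slc6a20b* at 1.75, *Slc7a12* at 0.0323 and *Slc7a13* at 0. *Slc7a12* thus went from rank 3 to rank 9. Neighbours in the middle of the order could not be separated: *Slc7a8* was above *Slc7a7* in 6 of 10 tumors, and *Slc7a7* was above *Slc7a9* in 4 of 10 normal kidneys.

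Tumor 7 was the lowest tumor for several members at once. It held 171 CPM of *Slc3a1* against 394 to 800 CPM in the other 9, 31.8 CPM of *Slc7a9* against 103 to 151 CPM, 42.8 CPM of *Slc7a7* against 136 to 328 CPM and 1.41 CPM of *Slc6a20b* against 4.04 to 32.5 CPM. The same tumor had 130 CPM of *Slc34a1*, against 211 to 1850 CPM, and 721 CPM of the macrophage gene *Lyz2*, against 81.0 to 274 CPM. Leaving out tumor 7 together with normal kidney 9 kept the calls of *Slc6a20b* (log2 fold change -2.85), *Slc1a1* (-0.51) and *Slc7a8* (0.68).

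Of 14 other carriers of the tubule, 12 were tested, of which 6 were higher and 1 was lower. *Slc16a10*, the basolateral uniporter of aromatic amino acids, rose from a median of 97.2 CPM in normal kidneys to 400 CPM in tumors (log2 fold change 2.13, SE 0.309, edgeR adjusted p = 8.03e-06). *Slc1a4*, a carrier of alanine, serine and cysteine, rose by a log2 fold change of 1.94 (adjusted p = 8.48e-08), with all 10 tumors above every kidney. The glutamine carrier *Slc38a3* (1.01), the basolateral uniporter *Slc43a2* (0.62) and *Slc6a20a* were also higher. The call of *Slc43a2* was lost in 14 of 29 alternatives, among them those without normal kidney 2, 3, 4, 5 or 10 or tumor 1, 4, 5, 6, 8 or 10 (log2 fold change 0.48 to 0.70 with any single library left out, adjusted p at most 0.0801). Carriers of small peptides went opposite ways. *Slc15a1*, the low-affinity form, rose by 3.35 (adjusted p = 1.21e-05) from a median of 1.25 CPM to 7.51 CPM, and *Slc15a2*, the high-affinity form, fell by 3.17 (adjusted p = 0.000756) from 54.0 to 3.82 CPM.

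Carriers used mainly outside the tubule were mixed. Of 16 listed, 14 were tested, 5 were higher and 2 were lower. *Slc7a11*, the cystine and glutamate exchanger xCT, rose most: its median was 0.941 CPM in normal kidneys and 163 CPM in tumors, every tumor lay above every kidney, and the log2 fold change was 5.02 (SE 0.863, edgeR adjusted p = 6.18e-05). Normal kidneys 5, 7 and 8 held 14.9, 30.1 and 3.37 CPM of it, against 0.18 to 1.38 CPM in the other 7. The log2 fold change was 6.09 without kidney 7 and 8.06 without all 3. *Slc1a2*, a glutamate carrier (3.19), *Slc38a4* (2.29), *Slc7a3* (1.46) and the glycine carrier *Slc6a9* (1.29) were higher (without the 3 kidneys *Slc7a3* stood at 2.31 and *Slc6a9* at 2.06), and the glutamine carriers *Slc38a1* (-1.85) and *Slc38a2* (-0.70) were lower. *Slc7a5*, which encodes LAT1, did not pass at a log2 fold change of 0.03 (adjusted p = 0.954), though 9 of 10 tumors lay above the kidney median. Of 6 genes listed as carriers of inner membranes, 5 were higher, *Slc7a4* (1.19), *Ctns*, the lysosomal exit of cystine (0.84), *Pqlc2* (0.71), *Slc38a7* (0.46) and *Slc38a9* (0.42). The membrane of *Slc7a4* was taken from that list and was not tested. The calls of *Slc38a7* and *Slc38a9* were lost with upper quartile scaling (adjusted p = 0.0754 and 0.0529) and with library totals (0.143 and 0.138). Without normal kidneys 5, 7 and 8, all of these calls stood except that of *Slc38a2* (log2 fold change -0.16, adjusted p = 0.455). The call of *Slc38a2* was also lost without normal kidney 5 alone (-0.32, adjusted p = 0.122), without kidney 8 or without any 1 of tumors 2, 3, 4, 5, 6, 8, 9 and 10. The fold changes of all tested carriers are drawn in the plot of fold changes by group.

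**Figure D5:**
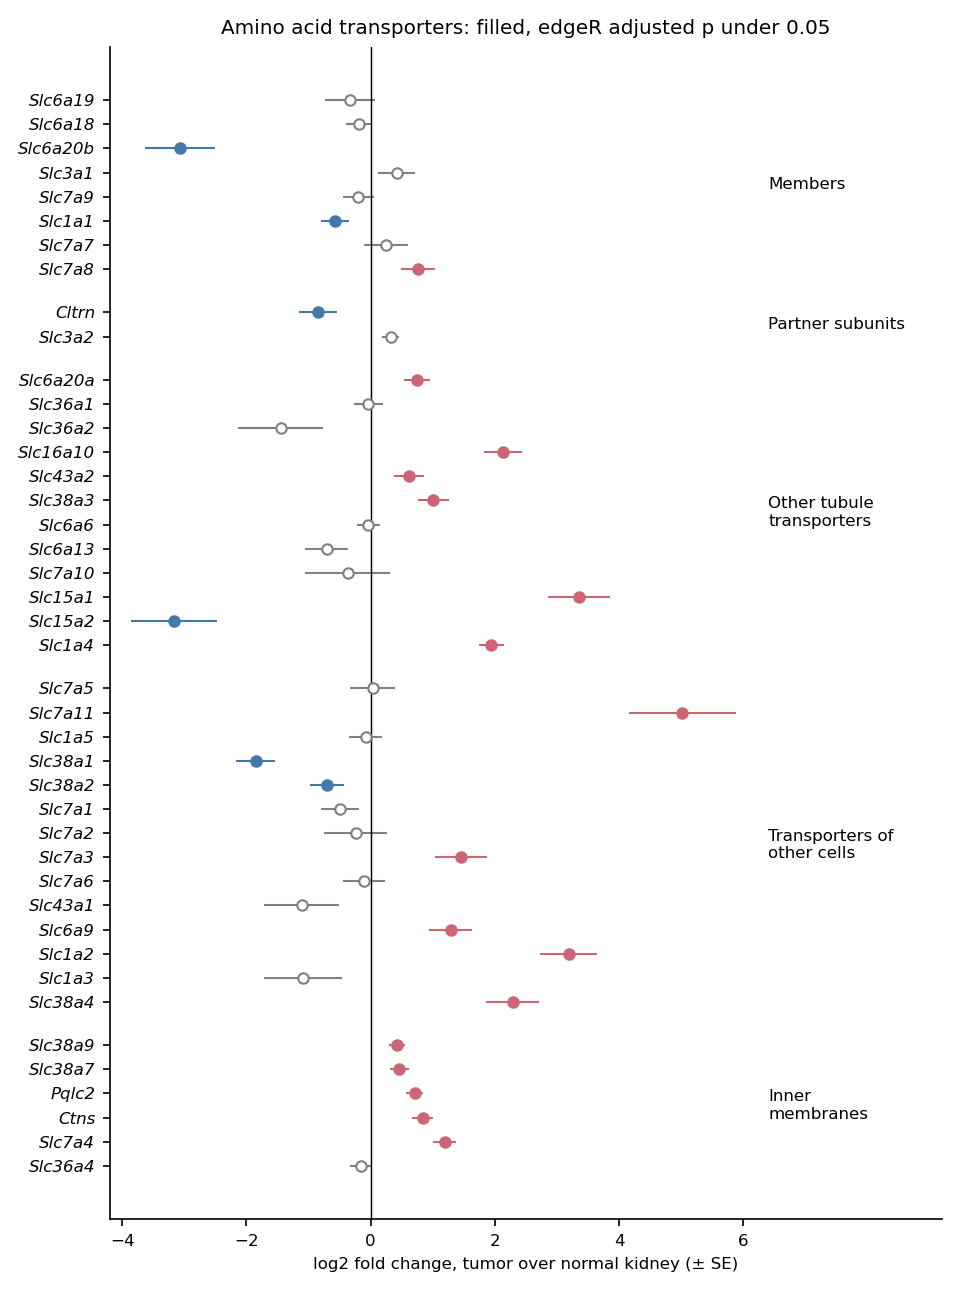
Log2 fold change of tumor over normal kidney (points, ± SE from edgeR) for the tested members, their partner subunits and 3 lists of other amino acid transporters, with filled points where adjusted p was under 0.05. *Slc7a11* lies farthest right at 5.02, and *Slc15a2* and *Slc6a20b* farthest left at -3.17 and -3.07.

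Markers of the nephron give the setting of these levels. Of 10 proximal tubule markers, 4 were lower in tumors and none was higher: the glucose carrier *Slc5a2* (log2 fold change -3.54), *Miox* (-3.24), the water channel *Aqp1* (-2.62) and the factor *Hnf4a* (-0.67, a call lost without normal kidney 1, 2, 3, 6 or 10 or tumor 1, 8 or 9, with adjusted p at most 0.0698). The uptake receptor *Lrp2* ranged from 450 to 4870 CPM in tumors and from 394 to 3440 CPM in normal kidneys and did not pass (0.56, edgeR adjusted p = 0.275). Of the others that did not pass, *Slc34a1* lay below the kidney median in all 10 tumors and *Cubn* in 9. *Ggt1* lay above it in 9, *Slc22a6* in 7 and *Slc5a12* in 5. The call of *Slc34a1* changed in 6 of 29 alternatives (log2 fold change -1.59 to -1.03 over all settings). Summed over the list, tumors held 1350 to 10300 CPM and kidneys 1810 to 12500 CPM. All 9 tested markers of other nephron segments, of 10 listed, were lower: *Umod* of the thick ascending limb was at most 5.46 CPM in tumors and at least 3420 CPM in kidneys. Of 5 genes of the straight proximal tubule, the segment of *Slc7a13*, 3 were lower, and the organic anion carrier *Slc22a7* had no count in any tumor. Summed levels of that list were 151 to 567 CPM in tumors and 302 to 816 CPM in kidneys. Of 8 immune markers, 6 were tested and 4 were higher, with summed levels of 261 to 1220 CPM in tumors and 78.2 to 297 CPM in kidneys. The markers did not move together. *Cd68*, *Lyz2*, *Itgam* and *Csf1r* lay above the kidney median in all 10 tumors, *Adgre1* in 8 and *Ptprc* in 5. *Cd3e* and *Cd79a*, which were not tested, lay below it in all 10. Of 7 stromal and endothelial markers 1 was higher, with summed levels of 214 to 3070 CPM in tumors and 347 to 851 CPM in kidneys. These did not move together either. *Cdh5* lay above the kidney median in 9 tumors and *Col1a1* in 8. *Kdr* lay below it in all 10, *Pdgfrb*, *Acta2* and *Dcn* in 8 each and *Pecam1* in 7. Tumor 7 held 1560 CPM of *Col1a1*, 494 CPM of *Acta2* and 424 CPM of *Dcn*. Of 7 injury genes 1 was higher, *Vcam1*, and 1 was lower, *Lcn2*. All 10 tumors lay above the kidney median for *Havcr1*, *Krt20*, *Vcam1*, *Sox9* and *Spp1*, 8 did for *Vim* and 1 for *Lcn2*. Summed over the injury list, tumors held 8940 to 37100 CPM and kidneys 2110 to 49800 CPM. The log2 fold change of *Lcn2* was -5.0, and without normal kidneys 5, 7 and 8 it was -1.13 and did not pass (adjusted p = 0.366). Their part in the members' levels was not tested.

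The genes whose levels ran most like each member's were found by the root mean square difference of centred log2 CPM over the 20 libraries. For *Slc3a1* they were *Glb1l* (0.184) and *Dusp19* (0.284), and for *Slc1a1* *Spata2l* (0.204), *Efcab2* (0.230) and *Gpm6a* (0.244). For *Slc6a20b* they were *Ranbp3l* (0.434), *Cyp2c23* (0.552) and *B3gat2* (0.631), and for *Slc7a8* *Bnc2* (0.346), *Adcy9* (0.351) and *Glis1* (0.352). For *Slc7a9* they were *Tmem8*, *Zfp94* and *Rmdn1* (0.276 to 0.291), for *Slc7a7* *Abcc6*, *Acad12* and *Afg1l* (0.394 to 0.406), and for *Slc6a18* *Ndufaf1*, *Tmem70* and *Gtf2h2* (0.315 to 0.330). The nearest genes were farther off for *Slc6a19* (*Plcb1*, 0.693), *Slc7a12* (*Ceacam2*, 1.345) and *Slc7a13* (*Azgp1*, 1.668), the members with the widest spread within a group.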

How the data were processed

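RNA was taken from 10 tumors and 10 normal kidney samples and sequenced by a company from poly(A)-selected libraries. The authors deposited raw counts of reads per gene, not normalized, with exon length and annotation, on the build mm10 named in the submitters' processing notes. The aligner, the counter and strand use are not given in the sources used here. All sample columns were used, and 0 were left over. Groups came from sample titles. Genes with at least 10 counts in enough libraries (filterByExpr) were tested with edgeR 4.0.16 (R 4.3.3) by glmQLFit and glmQLFTest after TMM scaling, tumors against normal kidneys, with Benjamini-Hochberg adjustment over 15354 genes and a threshold of 0.05. The 2 members removed by the filter and 8 ratios of paired members were tested by two-sided permutation with 100000 resamples (scipy 1.17.1). Alternatives were DESeq2 1.42.0, limma 3.58.1 with voom, other scalings, no filter, a replicate block and left-out libraries. The gene test was tested on simulated data. P-values measure the spread between these samples; tumors and kidneys came from the same mice, but the labels do not tie a tumor's number to a kidney's. Intervals and limits on a count of 0 (3 counts) cover counting error only.

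Named genes were all 10 members, the genes of the fixed lists for which a result is given, and for each member the 3 protein-coding genes with the closest pattern. Some genes that this rule takes in are not reported here. The rule for the members uses no measured value, but the members, the gene lists and the tests were chosen with earlier results of these data known. The permutation tests and the left-out tumor 6 were chosen after seeing the data. So were the exclusions of normal kidneys 5, 7 and 8, and of tumor 7 with normal kidney 9, from ratios. All exclusions of libraries from the comparison of every tumor with every kidney were also chosen then. Upstream windows came from RefSeq annotation of GRCm38.p6, and transcripts compared were those of GENCODE on the same build.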

Additional observations from a re-analysis of the deposited data

Results flagged for a closer look

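In 10 of 44 groups of 10 libraries, the highest or the lowest library stood apart from the rest by more than Dixon's 95% critical value, where chance gives about 1 in 20. The groups share libraries and the ratios reuse genes, so this count cannot be set directly against that rate. Values are log2 CPM unless said otherwise. Tumor 6 was lowest for *Slc6a19* at 3.32, with the nearest other tumor at 6.83. It was also lowest for the log2 ratio of *Slc6a19* to *Cltrn* at -6.06 and highest for the ratio of *Slc6a18* to *Slc6a19* at 6.13. Tumor 7 was lowest for *Slc3a1* at 7.42 (nearest 8.62), for *Slc7a9* at 5.00 (nearest 6.69) and for *Slc7a7* at 5.42 (nearest 7.09), and for the log2 ratio of *Slc7a7* to *Slc3a2* at -2.52. Tumor 10 was highest for *Slc7a13* at -1.87 among tumors, a value that rests on 4 counts. Normal kidney 5 was highest for *Slc3a2* at 8.77 (nearest 8.23). Normal kidney 8 was highest for the log2 ratio of *Slc7a9* to *Slc3a1* at -0.40 (nearest -1.57). The cause of these values was not tested.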

How the results depend on the processing

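The call of *Slc6a20b* stood in all 29 alternatives (log2 fold change -3.51 to -2.85), and that of *Slc1a1* was lost in 9 of them and that of *Slc7a8* in 3, as given above. Without normal kidneys 5, 7 and 8, 4 members were called lower, 0 were called higher, and 4 had every tumor below every kidney. Those called were *Slc6a20b*, *Slc1a1*, *Slc7a12* and *Slc7a13*. The low-count filter had left *Slc7a12* and *Slc7a13* out of the main fit but let them in here. The shares of all genes were not computed for this setting. In it 4 ratios passed, and *Slc7a7* (-0.11) and the ratio of *Slc7a7* to *Slc3a2* (-0.65) reversed. No member was called higher (0) with upper quartile scaling or library totals, which moved the median of all genes to -0.14. Leaving out each library in turn gave 1 to 4 members called lower and 1 to 2 with every tumor below every kidney. Counts of members called lower above 2 all took in *Slc7a12* or *Slc7a13*, which passed the low-count filter in those settings. Shares of all genes were not computed for these settings either. By leave-one-out the ratio of *Slc7a7* to *Slc3a2* ran from -0.19 to 0.27, reversing without kidney 5 (-0.17) or 7 (-0.19), and that of *Slc6a18* to *Slc6a19* from -0.14 to 0.58, reversing without tumor 6. The ratio of *Slc6a19* to *Cltrn* was -0.08 without tumor 7 and normal kidney 9, and that of *Slc7a12* to *Slc7a13* was 0.07 with a prior count of 0.5. Without the filter 3 members were called lower, *Slc6a20b*, *Slc7a12* and *Slc7a13*. The cause of these changes was not tested.

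With a replicate block on the sample number, 2 members were called lower, 1 higher and 2 ratios passed. The shares of all genes were not computed with the block. *Slc6a20b* was at -3.02, *Slc1a1* at -0.59 and *Slc7a8* at 0.84. The block changed no call of a member, and moved *Slc7a11* to 6.65. Among the other carriers it lost that of *Slc38a2* (-0.53). The numbers were checked by correlating deviations from the group means: r was between -0.143 and 0.377, over 0.1 for 9 of 10 numbers, and 8 of 10 samples matched their own number best, while *Xist* and *Ddx3y* put tumor and kidney of all 10 numbers on the same side. Depth limits *Slc7a12* and *Slc7a13*, which rest on 17 and 5 counts over the 10 tumors.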
